A study of Arabidopsis thaliana with 12 samples.

Results

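The comparison sets the rosettes of 2 Arabidopsis thaliana mutants impaired in ascorbate synthesis, vtc2 and vtc4, against those of 2 lines with a working route. It uses all 12 libraries of the series, 6 from the mutants and 6 from the other lines. The vtc2 group carries the allele vtc2-4 and the vtc4 group the allele vtc4-4. The OE group is vtc2/OE-VTC2 L15, which is 1 transgenic line that returns VTC2 to a vtc2 background, and neither its construct nor its promoter is given in the sources used here. WT is the wild type. Each genotype had 3 independent replicates, and a replicate was a pool of 8 rosettes. All plants were untreated and 4 weeks old, grown at 22 °C with 8 h of light and 16 h of darkness, and frozen 30 min after the lights came on. The light was 300 ± 70 µmol per square metre and second for all of them. The question is which transcripts moved the same way in both mutants, measured against OE as well as against WT. Each genotype is a single line, so what the mutants share by genotype and what they share as lines cannot be told apart.

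Ascorbate (vitamin C) is the most abundant water-soluble antioxidant of leaves and is made mainly through the Smirnoff-Wheeler route from GDP-mannose and L-galactose. VTC2 encodes GDP-L-galactose phosphorylase, the controlling enzyme of the route, and VTC4 encodes an inositol monophosphatase-type enzyme that removes the phosphate from L-galactose phosphate and also acts on inositol phosphates. Ascorbate serves ascorbate peroxidases and is a cofactor of dioxygenases, and the title of the series ties it to auxin synthesis.

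The targeted genes were checked first, in FPKM (fragments scaled to transcript length and to library size). VTC2 had 16.4, 20.3 and 14.8 FPKM in vtc2 and 719, 781 and 850 FPKM in vtc4, against 411, 366 and 372 FPKM in OE and 745, 810 and 900 FPKM in WT. VTC4 had 0.426, 0.416 and 0.276 FPKM in vtc4 and 30.1, 29.6 and 27.3 FPKM in vtc2, against 21.5, 21.5 and 26.7 FPKM in OE and 30.3, 25.2 and 29.3 FPKM in WT. Each mutant was low in its own gene only, so neither gene has the same sign in both mutants. The OE line lay above vtc2 but below WT in VTC2, so its libraries show no excess of VTC2 transcript over WT despite the label.

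The FPKM sums ranged from 684606 to 757484 per library, and 16591 to 16962 genes reached 1 FPKM. Total fragment counts were not analysed here. Steps between the lowest FPKM values put the other libraries at 0.991 to 1.095 of the depth of WT replicate 1. Only ratios near even depth were searched, so a large difference in depth could not have been seen. On the first principal component, with 24.9% of the variance, vtc2 replicates 2 and 3 stood apart at 25.5 and 30.9, against at most 5.45 elsewhere. These 2 libraries and OE replicate 2 also had the highest mean of 39 salicylate defence genes, 4.23, 4.56 and 4.00 on the log2(FPKM + 1) scale, against 3.05 to 3.71 elsewhere. Rosette identity was checked with markers: 17 of 19 flower and seed markers and 14 of 17 root markers stayed below 1 FPKM in all 12 libraries. Mesophyll markers summed to 26162 to 33266 FPKM in the mutants and 27587 to 32480 FPKM in OE and WT, while RBCS1A and RCA, which leaves express strongly, were listed at 0 throughout.

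Few genes separated the mutants from OE and WT. Of 17290 genes with at least 1 FPKM in at least 3 libraries, 85 were called, which is 0.492%: 23 were higher in the mutants (0.133%) and 62 were lower (0.359%). A call needed an adjusted p under 0.05 in limma for the mean of the mutants minus the mean of OE and WT, and the same sign in the 4 pairs vtc2 and vtc4 against OE and WT. The sign condition alone was met by 32.9% of the genes. Most changes were small, with a median of 1.36-fold among the higher genes and 1.28-fold among the lower ones on the FPKM + 1 scale, against a median log2 difference of 0.00 over all genes tested. In 64 of the 85 the log2 difference was under 0.5 in size, and 5 reached 2-fold. The test alone passed 97 genes (0.561%), of which 12 had mixed signs, VTC2 and VTC4 among them.

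The calls leaned on vtc2. The vtc2 difference was larger than the vtc4 difference in 78 of the 85 genes, with medians of 0.53 in vtc2 and 0.21 in vtc4 in the direction of the call. The share of all genes with the larger difference in vtc2 was not computed. Both mutants are measured against the same OE and WT libraries here. Taken pair by pair, 75 of the 85 were called in vtc2 against WT (3.02% of all genes) and 79 in vtc2 against OE (5.14%), but 5 in vtc4 against WT (0.0347%) and 4 in vtc4 against OE (0.0405%). The difference between vtc2 and vtc4 was itself called in 27 of the 85 (1.36% of all genes). The 85 therefore are mostly genes with a clear change in vtc2 and a smaller one of the same sign in vtc4.

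How many genes pass also turned on how the spread was measured. When the 12 libraries were treated as 2 groups of 6, so that differences between the genotypes of a pool counted as spread, 8 genes were called: AT1G64795, AT2G19970 and JAL34 as higher, and MRD1, HEI10, AT5G11330, DOG1 and AT3G62460 as lower. Against WT alone 21 genes were called and against OE alone 52, where only the pairs with that line needed the same sign. The count changed by more than 1.5 times without vtc2 replicate 1 (193 genes), 2 (41) or 3 (36), vtc4 replicate 1 (34), 2 (50) or 3 (31), OE replicate 1 (23), or WT replicate 1 (46) or 3 (48). Without both vtc2 replicates 2 and 3 it was 16. Of the 85, 19 stayed called whichever of the 12 libraries was left out, 4 of them higher and 15 lower, and 51 stayed in 6 or fewer of the 12.

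**Figure D1:**
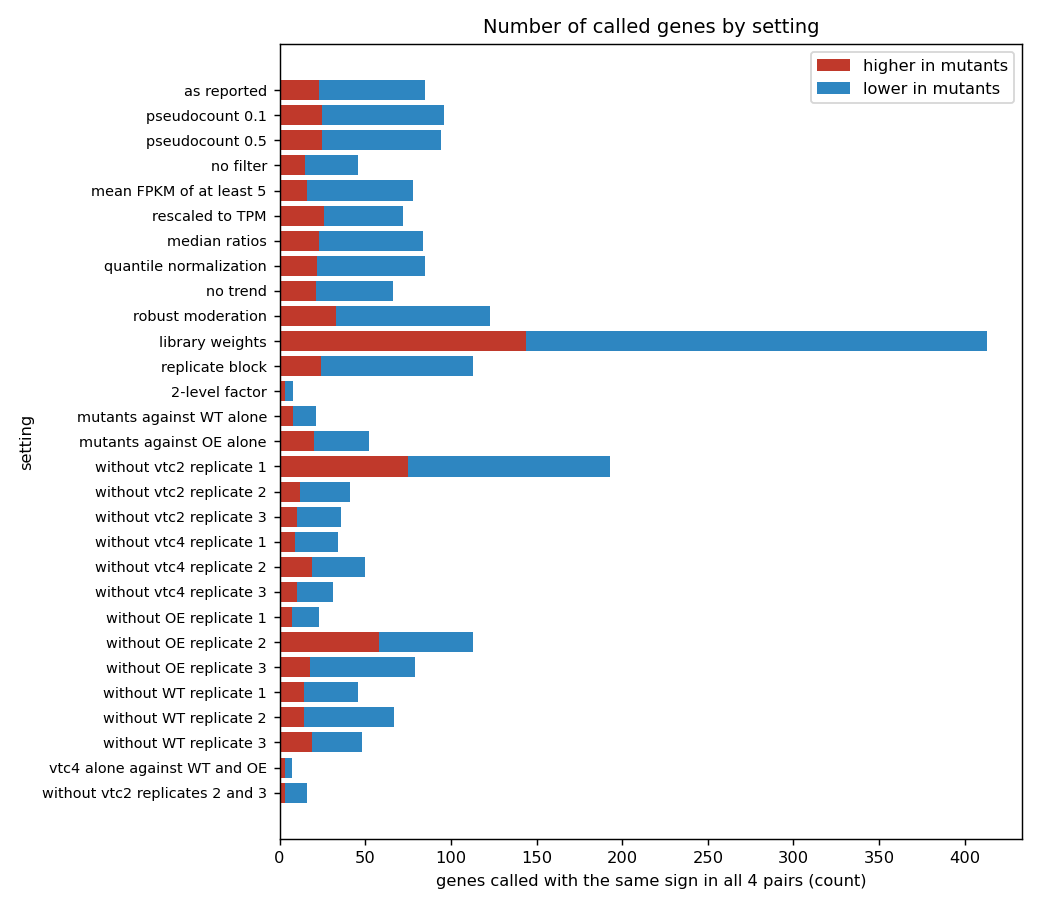
The plot gives the number of genes called with the same sign in all 4 pairs (x axis, count) for each setting (y axis), split into genes higher and lower in the mutants. The settings against WT or OE alone and that of vtc4 alone needed the same sign only in their own pairs. The 85 genes reported compare with 8 when the libraries form 2 groups of 6 and with 23 to 193 when 1 library is left out. The fit of vtc2 alone, with 1310 genes, is beyond the scale and not drawn.

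A set of 4 genes differed in each mutant against each other genotype when every pair had to pass: MRD1, HEI10, AT5G11330 and AT1G64795. This stricter rule takes the largest of the 4 pairwise p-values and adjusts it over all 17290 genes, of which it calls 0.0231%, while 57 genes had an unadjusted largest p under 0.05. In all 4, vtc2 and vtc4 stood at the same level and OE stood at the WT level although it carries the vtc2 background. The difference between vtc2 and vtc4 was not called in any of the 4, and lay between -0.15 and 0.00 on the log2 scale.

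MRD1, named for its lower transcript in the methionine-accumulating mto1 mutant, was nearly absent in both mutants. It had 0.454, 0.184 and 0 FPKM in vtc2 and 0.369, 0.187 and 0.302 FPKM in vtc4, against 32.3, 31.8 and 27.9 FPKM in OE and 30.5, 32.0 and 30.4 FPKM in WT. No mutant library came near the others. The log2 difference was -4.68 ± 0.08 (SE, adjusted p = 1.05e-11, limma), with -4.74 in vtc2 and -4.64 in vtc4 against WT. MRD1 lies at chr1:19963047-19964712 on the minus strand (TAIR10.1) and shares 1446 bases with HEI10 on the opposite strand.

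HEI10, a RING-domain protein that promotes meiotic crossovers, sits at chr1:19963267-19966952 on the plus strand. It was low in rosettes, with 0.302, 0.140 and 0.572 FPKM in vtc2 and 0.414, 0.521 and 0.362 FPKM in vtc4, against 2.43, 2.01 and 2.90 FPKM in OE and 2.35, 2.31 and 2.1999 FPKM in WT. All mutant libraries were below all others, and the log2 difference was -1.28 ± 0.09 (SE, adjusted p = 2.63e-05, limma). The libraries were made with a stranded kit, but how the quantification used strand is not given in the labels or notes. Reads from the shared stretch of MRD1 and HEI10 therefore cannot be assigned with certainty. A long non-coding RNA, AT1G07887, also lies there on the strand of HEI10, and it shares 1039 bases with MRD1 and 839 with HEI10. The flanking gene MUM4 showed no such step, with 26.1 to 29.0 FPKM in the mutants and 25.7 to 30.5 FPKM in OE and WT, and MSL4 on the other side stayed below 1 FPKM in all libraries.

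AT5G11330, annotated as a FAD/NAD(P)-binding oxidoreductase family protein, fell in both mutants by the same amount. It had 19.8, 17.9 and 18.8 FPKM in vtc2 and 20.7, 18.16 and 17.7 FPKM in vtc4, against 46.7, 43.7 and 42.1 FPKM in OE and 44.2, 42.9 and 45.3 FPKM in WT. The spread within each genotype was small beside the gap, and the log2 difference was -1.19 ± 0.05 (SE, adjusted p = 3.82e-08, limma), the same against OE and against WT. The gene lies at chr5:3617138-3618913 on the minus strand between YUC4, an auxin-synthesis flavin monooxygenase, and AT5G11340. YUC4 was under 1 FPKM in all libraries and was not tested, and AT5G11340 differed by -0.02 on the log2 scale (adjusted p = 0.866, limma).

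AT1G64795, an uncharacterized protein-coding gene, was present in the mutants and absent or nearly so elsewhere. It had 118, 91.6 and 78.0 FPKM in vtc2 and 95.4, 127 and 96.1 FPKM in vtc4. It was listed at 0 in the 3 OE libraries and in WT replicates 1 and 3, and WT replicate 2 had 0.836 FPKM. The log2(FPKM + 1) difference of 6.51 ± 0.15 (SE, adjusted p = 1.21e-10, limma) depends on the pseudocount. The gene spans chr1:24082579-24082848 on the plus strand and lies wholly inside ILA on the opposite strand, which had 5.89 to 8.03 FPKM in the mutants and 5.26 to 7.59 FPKM in OE and WT. All 270 bases are shared, so reads of AT1G64795 and ILA cannot be assigned with certainty either. The annotated transcript of AT1G64795 is 201 bases long, so its FPKM rest on a short stretch and were not compared with those of longer genes.

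**Figure D2:**
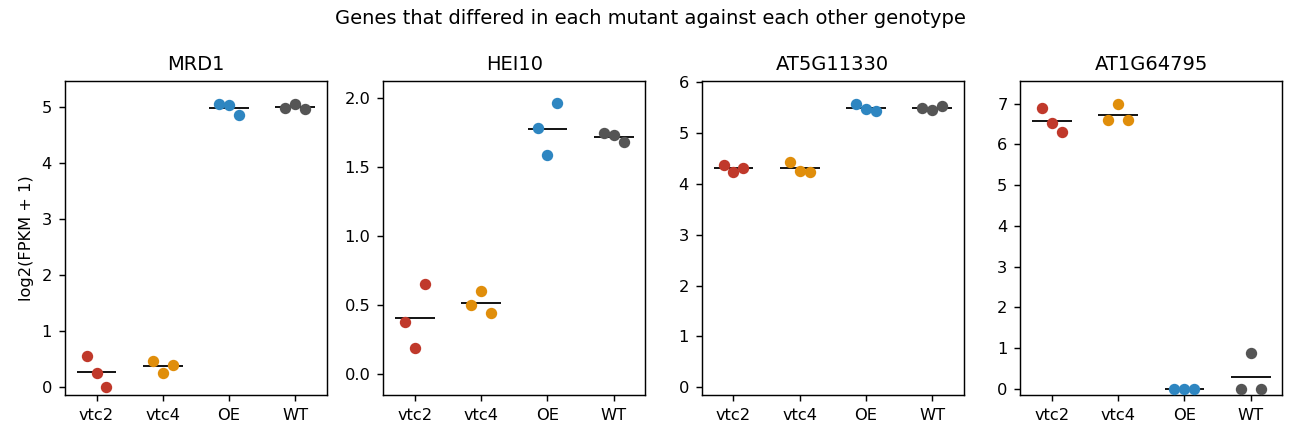
The plot shows log2(FPKM + 1) of MRD1, HEI10, AT5G11330 and AT1G64795 (y axes, a scale for each gene) in the 3 libraries of vtc2, vtc4, OE and WT (x axis), with points for libraries and lines for genotype means. In each gene the mutant points lie apart from all OE and WT points, and OE lies with WT.

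With these included, 34 of the 85 genes had no overlap between mutant and other libraries, a pattern found in 111 of all genes (0.642%). On the higher side AT2G19970, a cysteine-rich secretory protein of the CAP family, had 2.88, 2.91 and 2.49 FPKM in vtc2 and 3.00, 3.06 and 3.43 FPKM in vtc4, against 1.46, 1.22 and 1.60 FPKM in OE and 1.16, 1.07 and 1.90 FPKM in WT. Here vtc4 lay as high as vtc2, and the log2 difference was 0.73 ± 0.09 (SE, adjusted p = 0.00380, limma). ATPMEPCRB, annotated in the pectin methylesterase and invertase inhibitor superfamily, rose by 0.45 on the log2 scale, but without OE replicate 1 its adjusted p was 0.0529. NIP2, an interactor of NEP, rose by 0.36, and without OE replicate 1 its adjusted p was 0.0527. The jacalin-type lectin gene AT1G52100 rose by 0.49, with values up to 1.78 FPKM, and its call ended without any of 6 libraries, with adjusted p up to 0.0791.

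On the lower side DOG1, best known as a seed dormancy regulator, had 2.56, 2.43 and 1.71 FPKM in vtc2 and 2.75, 3.11 and 3.08 FPKM in vtc4, against 5.30, 5.07 and 4.11 FPKM in OE and 4.97, 4.80 and 4.68 FPKM in WT. It fell in the mutants, further in vtc2, by 0.70 ± 0.08 on the log2 scale (SE, adjusted p = 0.00200, limma). CYP707A1, an abscisic acid hydroxylase that inactivates the hormone, had 5.13, 4.62 and 3.89 FPKM in vtc2 and 5.95, 6.95 and 6.77 FPKM in vtc4, against 8.25, 7.66 and 8.33 FPKM in OE and 8.06, 8.15 and 8.14 FPKM in WT. The order vtc2, then vtc4, then the other lines was clear in every library, and vtc2 differed from vtc4 by -0.45 (adjusted p = 0.0346, limma).

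PMEAMT, a methyltransferase of phosphoethanolamine on the way to choline lipids, showed the same order. It had 56.6, 54.4 and 52.6 FPKM in vtc2 and 67.2, 72.4 and 72.0 FPKM in vtc4, against 88.3, 78.0 and 85.7 FPKM in OE and 84.7, 80.0 and 81.8 FPKM in WT, a log2 difference of -0.42 ± 0.04 (SE, adjusted p = 0.000710, limma). BT1, a BTB and TAZ domain scaffold protein, and AT1G68600, of the aluminium-activated malate transporter family, fell by 0.43 and 0.41. AT5G55570, an uncharacterized protein, and AT3G62460, a putative endonuclease or glycosyl hydrolase, fell by 0.45 and 0.52. These genes, DOG1 and CYP707A1 kept their calls whichever library was left out, but none of them was called for vtc4 alone. Against WT alone the adjusted p (limma) was 0.0602 for BT1, 0.0764 for AT1G68600 and AT5G55570, and 0.137 for AT3G62460. BT1 did not pass against OE alone either (adjusted p = 0.0535, limma).

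AT1G42430, annotated as an inactive purple acid phosphatase-like protein, was the most abundant of the large falls. It had 78.3, 73.4 and 59.5 FPKM in vtc2 and 88.8, 74.8 and 73.3 FPKM in vtc4, against 139, 124 and 111 FPKM in OE and 124, 95.0 and 95.5 FPKM in WT. The pools did not overlap, but the highest mutant library and the lowest WT library were close, and the adjusted p of 0.0136 (limma) became 0.0529 without OE replicate 1 and 0.0505 without vtc4 replicate 3.

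**Figure D3:**
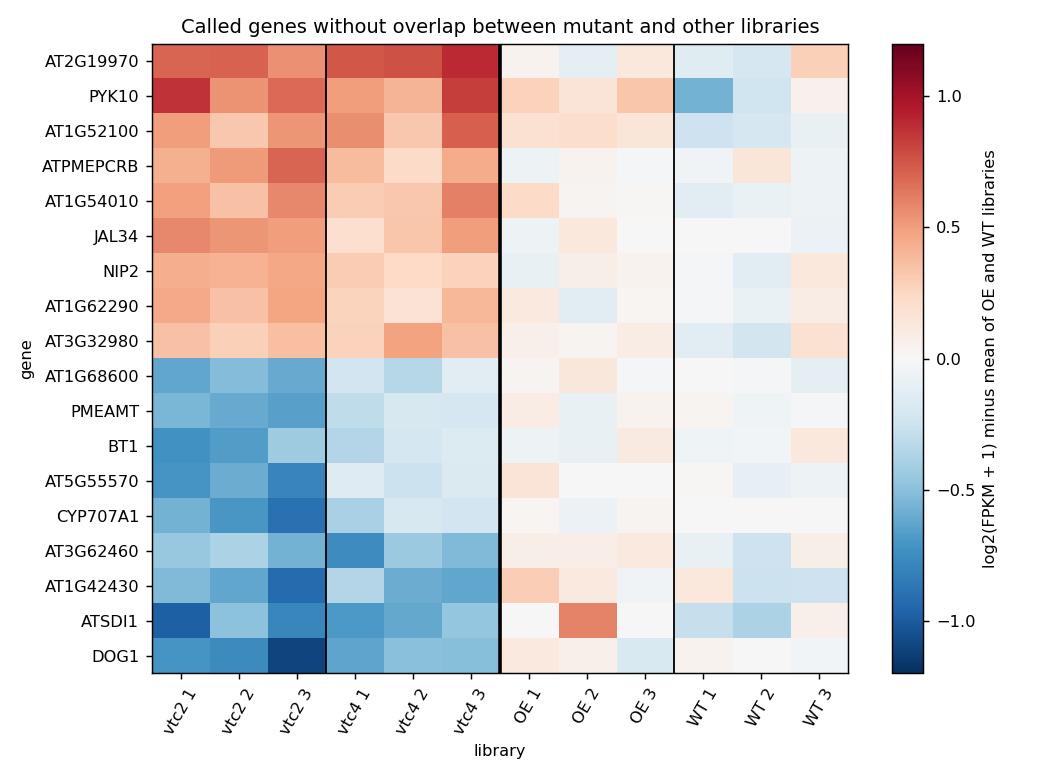
The heat map gives log2(FPKM + 1) minus the mean of the OE and WT libraries (colour) in the 12 libraries (columns, vtc2 and vtc4 left, OE and WT right). Rows are the largest rises and falls, up to 12 each, among called genes without overlap between the pools. MRD1, HEI10, AT5G11330 and AT1G64795 are left out. The higher genes are red and the lower genes blue in all 6 mutant libraries, and the blue is paler in vtc4 than in vtc2 for genes such as AT5G55570 and CYP707A1.

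Genes of the endoplasmic reticulum (ER) body system leaned upward in the mutants. ER bodies are Brassicales compartments that store the beta-glucosidase PYK10, which with jacalin-related lectins (JAL) and GDSL lipase-like proteins (GLL) forms a defence complex upon tissue damage. Of 12 tested members, 4 were called as higher, against 0.133% of all genes, and none as lower. A positive difference was found in 10 of the 12, against 50.3% of all genes, and the median was 0.21, against 0.00 over all genes. The list was chosen with earlier results of these data known.

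PYK10 had 31.2, 24.8 and 27.3 FPKM in vtc2 and 24.0, 22.5 and 30.4 FPKM in vtc4, against 20.4, 18.6 and 21.3 FPKM in OE and 10.9, 14.0 and 17.3 FPKM in WT. The pools did not overlap, but OE lay between WT and the mutants. The log2 difference was 0.64 ± 0.10 (SE, adjusted p = 0.0229, limma), and it was 0.38 against OE alone (adjusted p = 0.236). The adjusted p of PYK10 was 0.0569 without vtc2 replicate 3, 0.0543 without vtc4 replicate 1, 0.0583 without vtc4 replicate 3 and 0.0698 without OE replicate 1.

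JAL34, a mannose-binding lectin of the PYK10 complex, kept its call whichever library was left out, but was not called for vtc4 alone. It had 9.49, 9.21 and 9.02 FPKM in vtc2 and 7.11, 7.86 and 9.00 FPKM in vtc4, against 5.78, 6.69 and 6.04 FPKM in OE and 6.09, 6.06 and 5.72 FPKM in WT, and OE lay at the WT level. The log2 difference was 0.44 ± 0.06 (SE, adjusted p = 0.00620, limma). JAL34 shares 631 bases with JR1 (JAL35) on the opposite strand, and JR1 differed by 0.05 without a call. AT1G54010 (GLL23) rose by 0.44 (adjusted p = 0.0136, limma) with no overlap of libraries, and JAL33 by 0.51 with overlap, a call that held in 4 of the 12 fits with a library left out.

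The remaining members were not called: NAI2, the protein that builds ER bodies, differed by 0.23, MEB1, an ER body membrane protein, by 0.23, BGLU18, a wound-inducible beta-glucosidase, by 0.20, and NAI1, the transcription factor of the system, by -0.05. PYK10 is also on the list of root markers, and the list without it summed to 92.9 to 113 FPKM in the mutants and 79.1 to 95.8 FPKM in OE and WT. Of the 17 root markers, 14 stayed below 1 FPKM in all libraries, and 4 of those (PLT1, PLT2, RHD6 and EXPA7) were listed at 0. Only 3 root markers, PYK10 among them, were tested, so the sum rests mainly on very few genes. The part of root tissue in the PYK10 result was not tested.

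The 250 bases before the annotated starts of PYK10 and JAL34 are printed because both genes rose and because the factor NAI1 is a bHLH protein, a class that binds the E-box (CANNTG). The TAIR10.1 windows are chr3:2843782-2844031 on the minus strand and chr3:5592241-5592490 on the plus strand, and neither holds an E-box on either strand, against 55.3% of 27431 windows of protein-coding genes and 8 of 15 genes of the list.
PYK10: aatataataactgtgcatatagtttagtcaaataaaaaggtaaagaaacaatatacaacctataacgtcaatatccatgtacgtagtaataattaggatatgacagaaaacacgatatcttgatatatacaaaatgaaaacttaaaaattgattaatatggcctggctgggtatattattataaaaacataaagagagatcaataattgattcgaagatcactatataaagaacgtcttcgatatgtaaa
JAL34: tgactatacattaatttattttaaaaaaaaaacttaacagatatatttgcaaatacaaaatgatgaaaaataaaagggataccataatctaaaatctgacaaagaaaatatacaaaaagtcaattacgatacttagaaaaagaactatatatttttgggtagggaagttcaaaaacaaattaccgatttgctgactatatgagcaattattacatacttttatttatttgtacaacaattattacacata

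A few genes on a list of sulfur and methionine metabolism were lower in the mutants. Plants activate sulfate and reduce it with APS reductase (APR), the controlling step towards cysteine, glutathione and methionine. Of 36 tested genes on the list, 4 were called as lower (MRD1, ATSDI1, APR3 and APR1), against 0.359% of all genes, and none as higher. MRD1, the largest fall among the called genes, is named for a methionine-accumulating mutant, and its role in metabolism was not tested. APR1 and APR3 fell mainly in vtc2. As a whole the list was near the background, with 14 of 36 differences positive and 22 negative, against 50.3% positive over all genes, and a median of -0.05, against 0.00. The list was chosen with earlier results of these data known.

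APR3 had 42.8, 47.1 and 48.2 FPKM in vtc2 and 79.0, 69.4 and 79.3 FPKM in vtc4, against 91.5, 96.1 and 74.9 FPKM in OE and 74.2, 70.6 and 93.6 FPKM in WT. The vtc2 libraries were the low ones, while vtc4 overlapped WT and OE. The pooled log2 difference of -0.48 ± 0.08 (SE, adjusted p = 0.0242, limma) was made of -0.77 in vtc2 and -0.06 in vtc4 against WT, and vtc2 differed from vtc4 by -0.71 (adjusted p = 0.0205). The adjusted p of APR3 exceeded 0.05 without vtc2 replicate 2, any vtc4 replicate or OE replicate 1, reaching 0.0781, and without WT replicate 3 the signs of the 4 pairs no longer matched.

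APR1 followed, with 17.9, 20.6 and 22.5 FPKM in vtc2 and 29.8, 27.8 and 30.6 FPKM in vtc4, against 36.7, 35.5 and 33.1 FPKM in OE and 28.3, 29.5 and 33.9 FPKM in WT. All vtc2 libraries were below all others while vtc4 overlapped WT, and vtc2 differed from vtc4 by -0.51 (adjusted p = 0.0246, limma). The pooled log2 difference was -0.41 ± 0.06 (SE, adjusted p = 0.0136, limma), and the call ended without OE replicate 1 (adjusted p = 0.0597) and, through mixed signs, without WT replicate 3. APR2, the main leaf isoform, was not called (-0.22, adjusted p = 0.103, limma).

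ATSDI1, a sulfur-deficiency-induced protein, was low in both mutants. It had 0.843, 1.59 and 1.11 FPKM in vtc2 and 1.26, 1.38 and 1.64 FPKM in vtc4, against 2.64, 4.51 and 2.66 FPKM in OE and 2.01, 1.80 and 2.81 FPKM in WT. The pools did not overlap, though OE replicate 2 stood far above the rest. The log2 difference was -0.67 ± 0.13 (SE, adjusted p = 0.0420, limma). Against WT alone the difference was -0.47 and did not pass (adjusted p = 0.312, limma), while against OE alone it was -0.87 (adjusted p = 0.0438). The call held in 4 of the 12 fits with a library left out, the largest adjusted p being 0.109.

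The windows before APR3 (chr4:11659168-11659417, minus strand, TAIR10.1) and ATSDI1 (chr5:19807854-19808103, minus strand) are printed because the core of the sulfur-responsive element, GAGAC, was searched on both strands. It is found in 25.8% of the 27431 windows and in 5 of 38 genes of the list. ATSDI1 holds it once on the opposite strand as GTCTC, touching an E-box, and capitals mark both motifs. APR3 holds neither.
APR3: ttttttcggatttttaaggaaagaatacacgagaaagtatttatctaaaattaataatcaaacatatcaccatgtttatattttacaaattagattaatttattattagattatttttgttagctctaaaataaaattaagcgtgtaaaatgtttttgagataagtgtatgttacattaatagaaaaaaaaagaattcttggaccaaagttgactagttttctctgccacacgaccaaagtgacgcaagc
ATSDI1: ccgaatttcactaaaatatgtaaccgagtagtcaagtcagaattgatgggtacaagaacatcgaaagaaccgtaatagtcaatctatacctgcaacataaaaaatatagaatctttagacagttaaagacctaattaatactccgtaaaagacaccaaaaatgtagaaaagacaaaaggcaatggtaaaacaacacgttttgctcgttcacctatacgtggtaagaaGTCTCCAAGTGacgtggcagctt

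**Figure D4:**
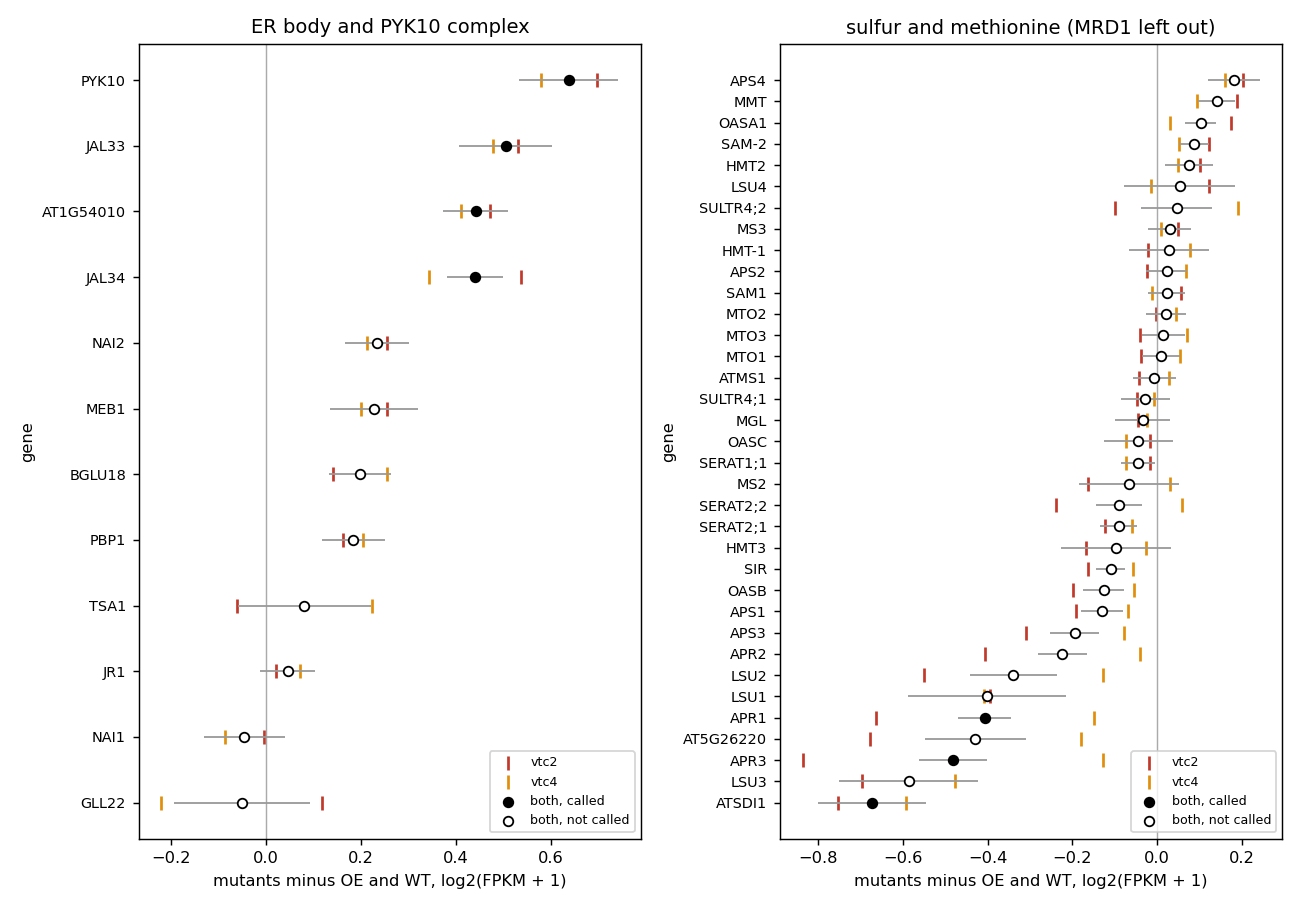
The plot gives the log2(FPKM + 1) difference of the mutants minus OE and WT (x axis) for tested genes (y axis) of the ER body list and of the sulfur and methionine list without MRD1. Circles are the pooled difference with its SE, filled where called, and ticks are vtc2 and vtc4 alone. The 4 called ER body genes have both ticks to the right of 0, while in APR1 and APR3 the vtc4 tick lies near -0.15 and -0.13.

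Around ascorbate and the antioxidant enzymes there were 3 calls, all lower in the mutants. MIOX1, a myo-inositol oxygenase, had 1.75, 1.55 and 2.07 FPKM in vtc2 and 2.69, 3.36 and 2.22 FPKM in vtc4, against 4.85, 4.81 and 4.44 FPKM in OE and 4.197, 3.27 and 3.44 FPKM in WT. Apart from vtc4 replicate 2, every mutant library was below every other library. The log2 difference was -0.67 ± 0.09 (SE, adjusted p = 0.00418, limma), kept whichever library was left out. Against WT alone the difference was -0.52 (adjusted p = 0.0906, limma), and the gene was not called for vtc4 alone. MIOX1 was the 1 call among 12 tested regulators and side routes of ascorbate, against 0.359% of all genes called as lower. A single call says little about a list.

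Among 23 other antioxidant enzymes, CAT2, the main leaf catalase, and FSD1, an iron superoxide dismutase, were called as lower, against 0.359% of all genes. Of the 23 differences 9 were positive, against 50.3% of all genes, and the list median was -0.04, against 0.00. CAT2 had 1164, 1231 and 1115 FPKM in vtc2 and 1347, 1405 and 1259 FPKM in vtc4, against 1600, 1562 and 1401 FPKM in OE and 1634, 1415 and 1484 FPKM in WT. FSD1 had 605, 610 and 572 FPKM in vtc2 and 762, 785 and 661 FPKM in vtc4, against 906, 884 and 730 FPKM in OE and 929, 761 and 969 FPKM in WT. Both were lowest in vtc2, with log2 differences of -0.28 (adjusted p = 0.0420, limma) for CAT2 and -0.38 (adjusted p = 0.0475, limma) for FSD1. Both calls held without vtc2 replicate 1, OE replicate 3 or WT replicate 2 and ended without any of the other 9 libraries, with adjusted p up to 0.121 for CAT2 and 0.132 for FSD1.

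None of the 22 tested genes of the ascorbate-glutathione cycle was called, against 0.492% of all genes. Of the 22 differences 18 were negative and 4 positive, against 50.3% positive over all genes, and the median was -0.06, against 0.00. The list median was -0.10 in vtc2 and -0.01 in vtc4 against the mean of OE and WT. In all 4 pairs 10 of the 22 had the same sign, against 32.9% of all genes. The smallest p-values belonged to MDAR6, a monodehydroascorbate reductase (-0.15, adjusted p = 0.103, limma), DHAR3, a dehydroascorbate reductase (-0.12, adjusted p = 0.196), and AT5G21100, an ascorbate oxidase (-0.11, adjusted p = 0.245). Within the synthesis route itself, VTC2 and VTC4 passed with mixed signs and none of the other tested genes was called. GME, the epimerase before VTC2, had 325, 309 and 289 FPKM in vtc2 and 329, 304 and 313 FPKM in vtc4, against 381, 360 and 341 FPKM in OE and 375, 337 and 338 FPKM in WT. All mutant libraries were below all others in GME, yet the difference of -0.19 did not pass (adjusted p = 0.0923, limma). VTC5, the other phosphorylase of the route, differed by 0.14 and GLDH, the last enzyme, by -0.16.

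Auxin synthesis held no call, and with 0.492% of all genes called, no call in a list this small is near the background. The filter on low values kept 11 of 22 genes. Of these, 5 differences were positive, against 50.3% of all genes, and the median was -0.07, against 0.00. TAA1, the tryptophan aminotransferase that opens the main auxin route, came nearest, with 4.67, 5.44 and 4.90 FPKM in vtc2 and 5.33, 5.69 and 5.44 FPKM in vtc4, against 7.80, 5.80 and 8.57 FPKM in OE and 6.78, 6.56 and 7.08 FPKM in WT. All mutant libraries were below all others, and the log2 difference was -0.37 ± 0.08 (SE, adjusted p = 0.0582, limma). TAA1 passed in 4 of 29 other settings and stayed negative in all of them, from -0.44 to -0.31. TAR2, its relative, differed by -0.22 with vtc2 low and vtc4 at the WT level, and NIT1, a nitrilase, by -0.13. The 10 tested tryptophan synthesis genes had no call and a median of -0.04.

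Downstream of auxin, AXR3 (IAA17), an Aux/IAA repressor, was the 1 call among 21 tested Aux/IAA genes, against 0.359% of all genes called as lower. It had 33.2, 36.5 and 35.5 FPKM in vtc2 and 45.5, 50.2 and 49.6 FPKM in vtc4, against 55.7, 54.5 and 51.0 FPKM in OE and 48.3, 49.0 and 55.3 FPKM in WT. The vtc2 libraries were low and vtc4 overlapped WT, and vtc2 differed from vtc4 by -0.45 (adjusted p = 0.0195, limma). The pooled difference was -0.34 ± 0.05 (SE, adjusted p = 0.0103, limma). None of 35 tested transport and signalling genes and none of 16 tested conjugation and catabolism genes was called, against 0.492% of all genes. The GH3 enzymes WES1 and GH3.3 had uncalled differences of 0.30 and 0.41.

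None of 39 tested salicylate defence genes was called, against 0.492% of all genes, and their pooled values came mainly from vtc2. The list median was 0.68 in vtc2 and 0.02 in vtc4 against the mean of OE and WT, and 15 of the 39 genes had the same sign in all 4 pairs. Pooled over both mutants, 36 differences were positive, against 50.3% of all genes, and the median was 0.38, against 0.00 over all genes. The high list means lay in vtc2 replicates 2 and 3 (4.23 and 4.56), while vtc2 replicate 1 (3.71) lay below OE replicate 2 (4.00). EDS16, the isochorismate synthase of salicylate production, had 13.3, 14.2 and 24.6 FPKM in vtc2 and 7.38, 7.76 and 8.21 FPKM in vtc4, against 3.88, 7.37 and 4.51 FPKM in OE and 9.22, 8.65 and 9.26 FPKM in WT. The high values lay in vtc2, and vtc4 lay below WT, with a pooled difference of 0.67 ± 0.15 (SE, adjusted p = 0.0706, limma) and a vtc2 minus vtc4 difference of 1.01 (adjusted p = 0.0433). DMR6, a salicylate hydroxylase, differed by 0.64 and AT5G10760, an aspartyl protease, by 0.79, both with vtc4 at the WT level.

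Single calls came from further lists, and with 0.492% of all genes called, 1 call says little about a list. JAZ6, a jasmonate repressor, fell by 0.27 without overlap of libraries as the 1 call of 35 tested jasmonate genes, held in 5 of the 12 fits with a library left out. NAS3, a nicotianamine synthase of iron transport, fell by 0.43, and EXO, a brassinosteroid-responsive growth protein, rose by 0.48, held in 4 and 5 of those fits. SQP1, a squalene epoxidase-like gene, had 19.0, 20.4 and 20.2 FPKM in vtc2 and 48.4, 42.3 and 47.2 FPKM in vtc4, against 47.9, 52.9 and 45.0 FPKM in OE and 42.0, 46.6 and 57.1 FPKM in WT. Its fall thus lay in vtc2, with a vtc2 minus vtc4 difference of -1.17 (adjusted p = 0.000368, limma), and without WT replicate 3 the signs of the 4 pairs no longer matched. Lists without any call were the clock (19 tested), photosystem and Calvin cycle (48), photoprotection (27), aliphatic glucosinolates (24), heat shock (27), flavonoids (16), senescence (25), phosphate and inositol (18), cell wall expansion (36) and ascorbate-using dioxygenases (14). With 0.492% of all genes called, no call in lists of these sizes is near the background.

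**Figure D5:**
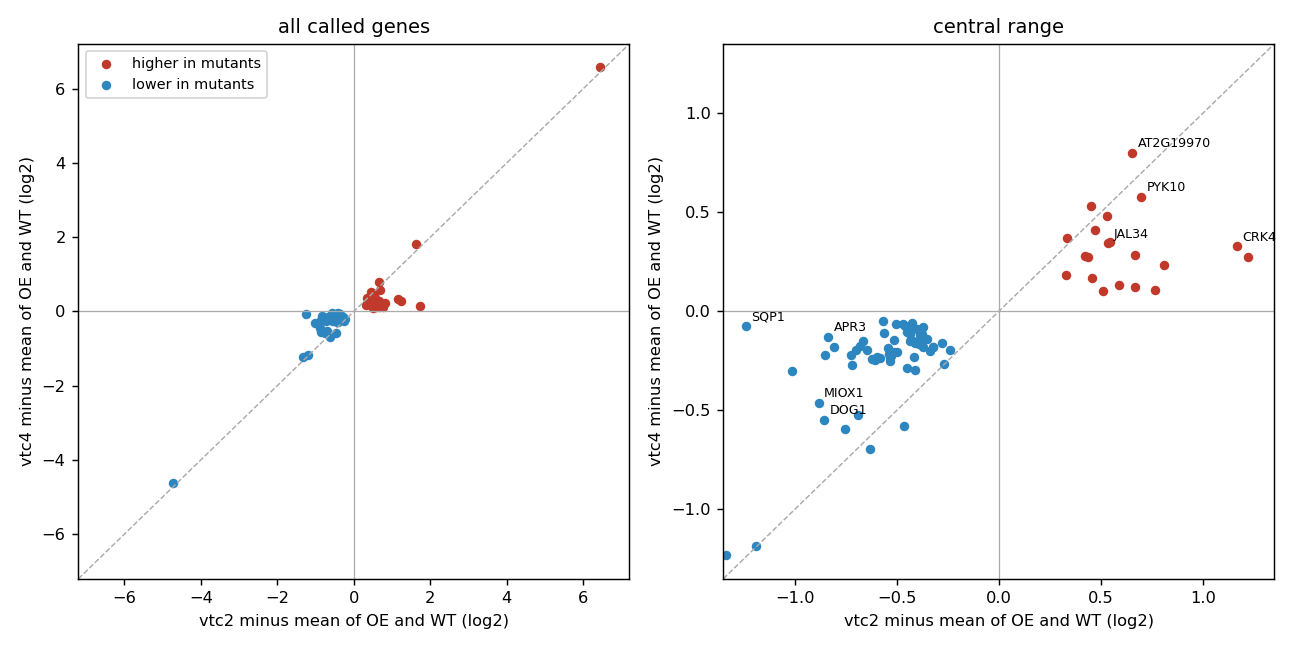
Each point is 1 of the 85 called genes, with its log2 difference from the mean of OE and WT in vtc2 (x axis) and in vtc4 (y axis), over the full range at left and the central range at right. The 2 axes share the OE and WT libraries, and the dashed line marks equal differences. In 78 of the 85 the vtc2 difference is the larger in size, and the share over all genes was not computed.

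Some called genes were chosen for mention after their values were seen. SHM1, the photorespiratory serine hydroxymethyltransferase, had 937, 924 and 878 FPKM in vtc2 and 1280, 1215 and 1218 FPKM in vtc4, against 1345, 1327 and 1266 FPKM in OE and 1359, 1148 and 1323 FPKM in WT. All vtc2 libraries were below all others and vtc4 overlapped WT, for a pooled difference of -0.28. PDX1.1, of vitamin B synthesis (pyridoxine), fell by 0.36 and THI1, of thiamine synthesis, by 0.27, as did UPM1, which makes the sirohaem of sulfite reductase, by 0.32. PDX1.1 kept its call whichever library was left out, as did ELI3-1, an alcohol dehydrogenase (-0.38). Neither was called against WT alone or for vtc4 alone. SHM1 kept its call in 4, UPM1 in 3 and THI1 in 2 of the 12 fits with a library left out.

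The shared sign was nominal in some genes. AT1G75945, an uncharacterized protein, had 10.1, 10.1 and 7.33 FPKM in vtc2, 10.2, 11.7 and 10.2 FPKM in vtc4 and 10.3, 8.18 and 8.60 FPKM in OE, while WT had 0, 0.272 and 0 FPKM. OE lay at the mutant level, with differences from OE of 0.01 in vtc2 and 0.22 in vtc4. AT3G05955, annotated as other RNA, had 3.25, 2.19 and 2.33 FPKM in vtc2 and 0.210, 0.110 and 0.213 FPKM in vtc4, against 0.323, 0 and 0.103 FPKM in OE and 0 FPKM in the 3 WT libraries, so its change lay in vtc2.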

How the data were processed

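The deposited table holds FPKM per gene for the 12 libraries (paired 75-base reads from a stranded mRNA kit, per the labels). The authors used Trimmomatic 0.36, HISAT2 2.1.0, Cufflinks 2.2.1 and Cuffdiff with the TAIR10 genome, per the submitters' processing notes. The annotation, strand setting and normalization option are not given in the sources used here. FPKM are not counts, so the 17290 genes with at least 1 FPKM in at least 3 libraries were analysed as log2(FPKM + 1) with limma 3.58.1 (trend, two-sided) in R 4.3.3, with Benjamini-Hochberg adjustment over all of them and 1 model of 4 genotypes. P-values measure the spread between pools of rosettes of 1 line per genotype. A fold on this scale understates the change of low genes. Of 33618 identifiers, 32217 matched RefSeq TAIR10.1, the source of names, coordinates and sequences. Named genes are the targeted genes, the called genes without overlap and a mean of at least 1 FPKM (up to 12 rises and 12 falls), up to 4 called members of a list or up to 3 with the smallest p, the genes of the each-pair rule and their neighbours. The comparison, its members and the lists were chosen with earlier results of these data known. Alternatives varied the pseudocount, filter, scaling, moderation, weights, replicate block, groups and libraries.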

Additional observations from a re-analysis of the deposited data

Results flagged for a closer look

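Among named genes and library totals, 5 of 126 pools of 6 libraries tested had a library far from the rest, and chance flags about 1 in 20. In AT1G64795 it was WT replicate 2 with 0.836 FPKM, where the other WT and OE libraries were at 0. In ATSDI1 it was OE replicate 2 with 4.51 FPKM (nearest 2.81), in VTC5 WT replicate 3 with 21.6 FPKM (nearest 19.7), in NIT1 OE replicate 3 with 1129 FPKM (nearest 1364) and in TRP1 OE replicate 2 with 28.8 FPKM (nearest 24.5).

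The mutants differed from each other (vtc2 minus vtc4, limma, adjusted over all genes) in 14 of 62 named genes. Those are the targeted genes VTC2 (-5.44) and VTC4 (4.45), and among genes called for the pooled comparison CYP707A1 (-0.45), AT5G55570 (-0.50), PMEAMT (-0.37), AXR3 (-0.45), SQP1 (-1.17), APR1 (-0.51) and APR3 (-0.71), all lower in vtc2. Among genes not called there, DHAR3 (-0.33), TAR2 (-0.52), SBPASE (-0.31) and PGK1 (-0.35) were lower in vtc2 and EDS16 (1.01) was higher.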

How the results depend on the processing

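The each-pair rule called 4 genes in nearly all settings run, and 3 (without HEI10) with a pseudocount of 0.1 or a mean of at least 5 FPKM, and 4 with any library left out. The count of 85 was far less stable. It was 46 with no filter, 413 with library weights, 8 with 2 groups of 6, 21 against WT alone and 52 against OE alone. It ranged from 23 to 193 with 1 library left out. Fits against WT or OE alone, or of 1 mutant alone, needed the same sign only in their own pairs. Settings added after seeing the data gave 1310 for vtc2 alone, 7 for vtc4 alone (among them MRD1, HEI10, AT5G11330, AT1G64795 and AT2G19970) and 16 without vtc2 replicates 2 and 3. Other scalings, pseudocounts and moderation gave 66 to 123, and a replicate block gave 113, of which 74 are among the 85. Over 18 same-numbered pairs of libraries the correlation of deviations ran from -0.17 to 0.20, with 6 over 0.1. Differently numbered pairs were not set beside them, so whether the replicate numbers pair the samples is not settled. Over the named genes and settings, 1507 values kept direction and call, 230 lost the call and 40 gained it. The direction turned in 6: VTC4 for vtc2 alone (0.18), and for vtc4 alone VTC2 (0.48), DHAR3 (0.040), AT5G21100 (0.0020), TAR2 (0.042) and PGK1 (0.015). The cause was not tested. Without counts, counting error could not be given, and genes near 1 FPKM are the least certain.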
